A study of Mus musculus with 4 samples.

Results

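Alveolar type 1-like cells of the embryonic mouse lung at day E17.5 were taken as cells in which 3 or more of Epcam, Cdh1, Cldn3, Cldn18 and Krt7 were detected, Ptprc and Pecam1 were not, and the summed level of Ager, Hopx, Akap5 and Rtkn2 reached 300 CPM (counts scaled to 1000000 per cell) and was over 2 times the summed level of the type 2 genes Lamp3, Slc34a2, Cxcl15 and S100g. This rule found 858 of the 7479 cells of 3 E17.5 lungs, and the series holds 10564 cells in all. Per lung the members were 290 of 2682, 248 of 2140 and 320 of 2657 cells, or 10.8, 11.6 and 12% (11.5 ± 0.62%, SD, n = 3). They were 55.0 ± 5.59% of the cells that passed the epithelial part of the rule. That epithelial part also held 474 AT2-like cells, chosen by the mirrored rule on the type 2 genes, 192 cells with both programmes and 56 other cells. The class was called AT1-like because no label names a cell type.

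The study profiled single cells of embryonic lungs by RNA sequencing with molecule barcodes (UMIs). The 3 E17.5 samples, labelled WT1, WT2 and WT3 and written here as lungs 1, 2 and 3, were live cells of digested C57BL/6 lungs after lysis of red cells. A further sample came from 1 E16.5 lung and was sorted for the reporters αSMA-GFP and Rosa26-tdTomato, the latter switched on by Tbx4-Cre, and it enters no comparison here. Digestion and gating set which cells were recovered, so the shares are shares of recovered cells. Whether the 3 lungs came from 1 litter or several is not stated, so p-values hold only for these samples.

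Type 1 cells are the thin, wide epithelial cells across which the lung exchanges gas, and type 2 cells are the cuboid cells that make surfactant. Both arise before birth from progenitors at the tips of the branching airways, which carry Sox9 and Id2 and respond to FGF signals. As type 1 cells form they flatten, lay down basement membrane beside the capillaries and supply Vegfa to the endothelium.

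The lungs gave 20347458 to 23996253 UMIs each, with a median of 7201 to 8493.5 per cell and no cell under 2335. The lungs shared 9 to 12 cell barcodes per pair. Simulated doublet scores called 36, 30 and 24 cells (1.34, 1.40 and 0.903%), of which 3 in each lung were AT1-like; these cells stayed in the main counts. AT1-like cells had a median of 9002.5, 9870.5 and 7672.5 UMIs in lungs 1, 2 and 3 and AT2-like cells 10948, 11354 and 10166, so the AT1-like cells were the shallower class in each lung. Of 2562 genes with at least 50 CPM in AT1-like cells, 2 were at least 2-fold lower in lung 1 than in both other lungs, 1 was lower in lung 2, and 8 were lower and 2 higher in lung 3.

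The genes of the rule are given as a description, since they chose the cells. Ager, which encodes the receptor for advanced glycation end products and is a main marker of type 1 cells, was at 5252, 4527 and 5803 CPM in AT1-like cells of lungs 1, 2 and 3, and at 694 ± 56.8 CPM in AT2-like cells (SD, n = 3). Akap5, an anchor for protein kinase A, was at 427 ± 42.9 against 12.3 ± 1.18 CPM. Rtkn2 was at 81.1 ± 27.9 against 4.28 ± 1.3 CPM. Hopx, a homeodomain protein of type 1 cells, was at 404, 880 and 1178 CPM, against 23.3, 48.8 and 69.4 CPM in AT2-like cells of the same lungs. Lung 1 was therefore the lowest of the lungs for Hopx in both classes. Cldn18, a lung claudin, was at 1471 ± 74.2 against 600 ± 47.1 CPM. All 4 of the genes taken as defining markers (Ager, Hopx, Akap5 and Cldn18) were above AT2-like cells in each lung.

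**Figure D1:**
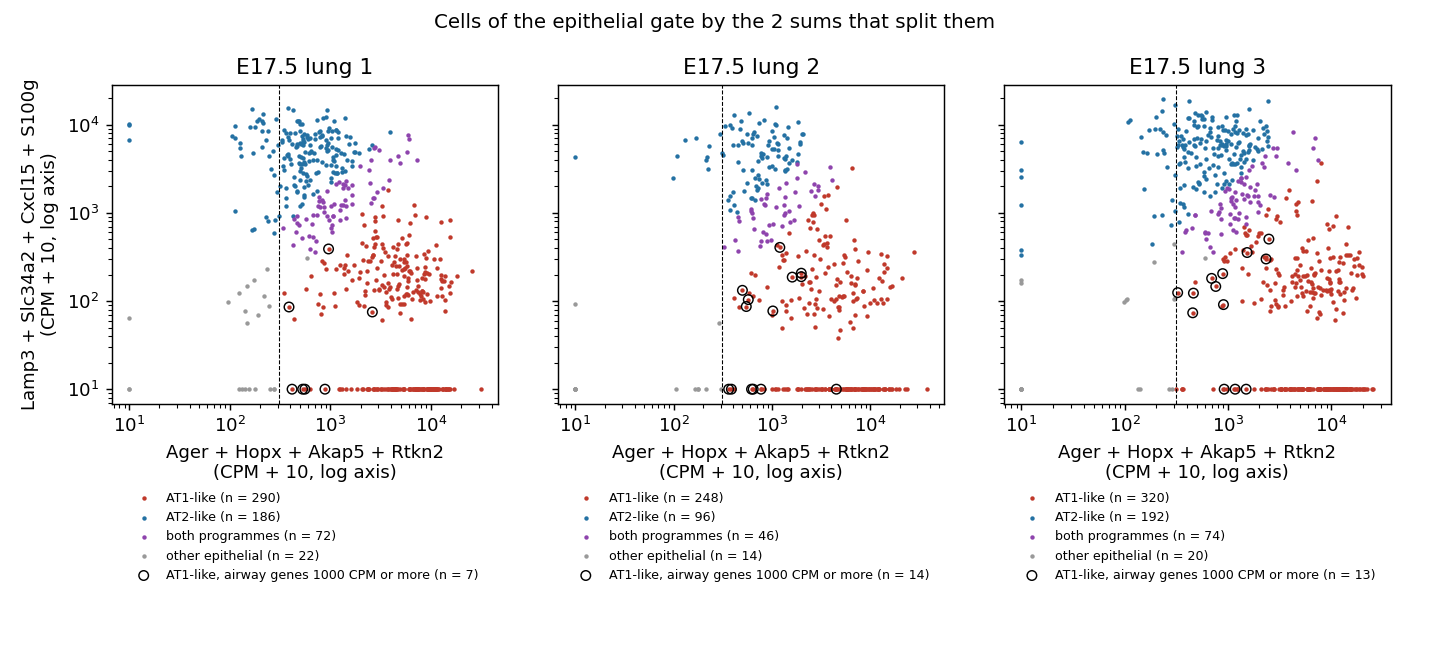
Each point is a cell that passed the epithelial part of the rule, by its summed level of 4 type 1 genes (x) and of 4 type 2 genes (y), both in CPM plus 10 on log axes; the dashed line marks 300 CPM and colours mark the class. The 34 open circles, 7, 14 and 13 per lung, are AT1-like cells with 1000 CPM or more of airway secretory genes.

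The type 1 sum had a median of 5231, 4430 and 6471 CPM over the members of lungs 1, 2 and 3 and ranged from 301 to 37423 CPM over all of them. Few cells lay near the limits: 11 members had a sum between 300 and 400 CPM, and 11 other epithelial cells had one between 200 and 300 CPM. In 11 members the type 1 sum was 2 to 2.5 times the type 2 sum, and in 39 epithelial cells outside the class it was 1.5 to 2 times.

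A small number of members went against the name. In 7, 14 and 13 members of lungs 1, 2 and 3 the airway secretory genes Scgb1a1, Scgb3a2, Scgb3a1, Cyp2f2 and Sox2 summed to 1000 CPM or more. In these 34 cells Scgb3a2, a secretoglobin of airway cells, averaged 24677, 24273 and 22879 CPM, while Aqp5 averaged 9.79, 5.48 and 13.4 CPM and Ager 680, 801 and 738 CPM. None of them was called a doublet. They passed the rule with a type 1 sum over 300 CPM and little of the type 2 genes. Results are given with all 858 members, and the main counts are repeated without these cells. Mesenchymal markers summed to 1000 CPM or more in 3, 5 and 6 members of lungs 1, 2 and 3. Immune markers did so in 4, 1 and 4 members, and ciliated markers in 0, 1 and 2. In lung 2 endothelial markers did so in 2 members and neuroendocrine markers in 1. These other lists were not used to leave cells out.

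UMIs of abundant transcripts of type 2 cells were found in other classes too. Sftpc, the surfactant protein C of type 2 cells, was at 16939, 16660 and 16656 CPM in AT1-like cells, at 101260 to 107770 CPM in AT2-like cells, and at 1812 ± 315 CPM in immune cells. The mean in AT1-like cells lay far above their median: the summed level of 11 type 2 genes, Sftpc among them, averaged 18321, 18221 and 18133 CPM over AT1-like cells, while its median was 6809, 7146 and 4465 CPM, against medians of 6765, 6173 and 6519 CPM in immune cells. The median of the AT1-like cells lay close to that of the immune cells in lungs 1 and 2 and under it in lung 3. Medians were lower in endothelial (2365, 1809 and 2125 CPM) and mesenchymal cells (2409, 1948 and 2189 CPM), under the AT1-like median in each lung. The 11 genes include Lyz2, and the immune sum averaged 8976, 8245 and 8924 CPM, far above the 1812 CPM of Sftpc. How much of the immune sum is background was not tested. After thinning every cell to 2000 UMIs, 96.1 ± 2.43% of immune cells still held an Sftpc UMI, so its presence alone does not tell these classes apart. How much of the Sftpc in AT1-like cells is their own was not tested. The type 1 genes were detected less widely. Aqp5 was detected in 26.5 ± 5.62% of thinned AT1-like cells (46.6 ± 6.15% before thinning) and 0.734 ± 0.237% of thinned immune cells (2.89 ± 0.883% before). Ager was detected in 94.9 ± 1.79% of thinned AT1-like and 19.4 ± 0.909% of thinned immune cells.

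Which genes set AT1-like cells apart from AT2-like cells of the same lung was tested for 8269 genes that averaged 10 CPM or more over the 5 classes, without the genes of all the class rules. The classes were cut by expression of the same cells, so a p here says only that the difference between classes so defined exceeded the spread over 3 lungs. By limma on log2(CPM + 10) with lung as a block (Benjamini-Hochberg adjusted p under 0.05), 2393 genes were higher in AT1-like cells (28.9% of those tested) and 1000 lower (12.1%). The median difference over all genes tested was 0.09 on the log2 scale. Of the genes tested, 216 (2.61%) averaged under 10 CPM over the other 4 classes and so passed the filter only through the AT1-like class. Those of them that are named below are given by their values with no p, and most list counts against AT2-like cells are repeated without them. Among the other 8053 genes 27.8% were higher and 12.4% lower. Some genes likewise passed only through AT2-like cells, and for these the filter favoured a lower value in AT1-like cells. They were not set apart, so counts of lower genes are not repeated without them. The balance of small differences depended on scaling and tool: under median-of-ratios scaling the median was 0.01, and 1590 genes were higher (19.2%) and 1464 lower (17.7%), so that 52.1% of calls were higher, against 70.5%, while edgeR on recovered UMI sums called 1190 and 1265 (48.5% higher). Of the limma calls edgeR shared 1183 higher genes, 49.4% of limma's and 99.4% of its own, and 949 lower genes, 94.9 and 75%. By 2-fold or more on the scale of CPM + 10, 290 genes were higher (3.51% of those tested) and 190 lower (2.30%), and 289 of the former and all 190 of the latter were called in the same direction by all 3 methods. Without the 34 members high in airway genes limma called 2395 genes higher and 1039 lower.

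Of the 12 genes with the largest increases over AT2-like cells, 8 were on the list of type 1 genes outside the rule, which holds 30 of the 8269 genes tested. The list was chosen with earlier results of these data known, so its counts here and below are a description. Cryab, a small heat shock chaperone, was at 654, 522 and 693 CPM in AT1-like cells and 37.8, 25.2 and 32.4 CPM in AT2-like cells of lungs 1, 2 and 3 (log2 difference 3.92 ± 0.15, SE, limma adjusted p = 2.2e-16). Aqp5, the apical water channel of type 1 cells, was at 258, 245 and 319 against 6.51, 8.88 and 15.6 CPM (log2 difference 3.82). For both genes the lowest AT1-like lung was far above the highest AT2-like lung. Pdpn, the membrane mucin podoplanin, was at 240, 212 and 278 against 19.9, 14.7 and 19.3 CPM (3.17). Emp2, a tetraspan membrane protein, was at 1600, 1348 and 1867 against 154, 171 and 172 CPM (3.19 ± 0.10, limma adjusted p = 1.5e-17). The groups again did not overlap, but all these genes were chosen for the size of their difference. Sdpr, Msln, Clic5, S100a6, Sec14l3, Gprc5a, Ehd2 and Dpysl2 made up the 12 genes with the largest increases, with log2 differences of 2.92 to 3.72. Of the 12, Aqp5, Pdpn and Sec14l3 passed the filter only through AT1-like cells.

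**Figure D2:**
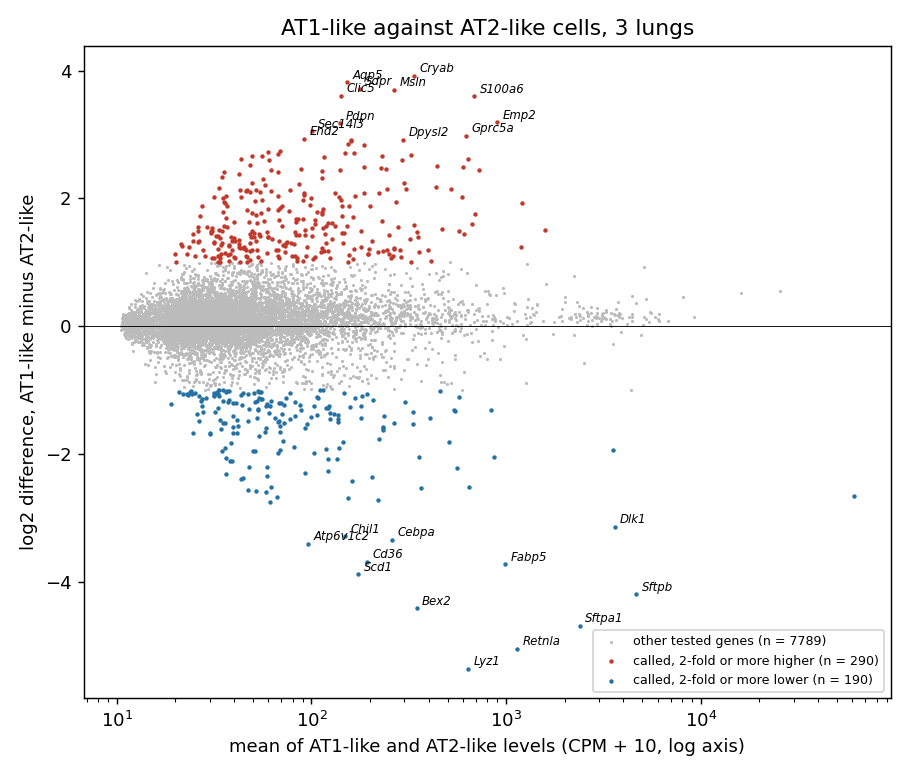
Each point is a tested gene, by its mean level in AT1-like and AT2-like cells (CPM plus 10, log axis) and its log2 difference between them; coloured points were called by limma and differed 2-fold or more, 290 higher and 190 lower, and the 12 largest in each direction are named. Lyz1, Retnla and Sftpa1 are the lowest and Cryab, Aqp5 and Sdpr the highest.

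The 12 largest decreases included surfactant protein genes. Sftpb, surfactant protein B, was at 411, 527 and 489 CPM in AT1-like cells and 8954, 9143 and 8433 CPM in AT2-like cells (log2 difference -4.20 ± 0.13, limma adjusted p = 7.5e-18). Lyz1, a lysozyme, was at 25.7, 16.9 and 18.7 against 1366, 1101 and 1223 CPM, the largest fall (-5.36 ± 0.10, limma adjusted p = 2.6e-21), although reads can be split between it and its close copy Lyz2, which was lower too (-2.22). No AT1-like lung came near an AT2-like lung for either gene, but both were chosen for the size of their difference. Cebpa, a transcription factor of type 2 maturation, was at 35.2, 38.3 and 36.9 against 447, 472 and 468 CPM (-3.34 ± 0.10, limma adjusted p = 3.6e-18). Dlk1, a non-canonical Notch ligand, was at 710, 795 and 677 against 6609, 6013 and 6808 CPM (-3.14 ± 0.09, limma adjusted p = 2.7e-18). Retnla, Sftpa1, Bex2, the desaturase Scd1, the fatty acid carrier Fabp5, the fatty acid receptor Cd36, Atp6v1c2 and Chil1 were the others of the 12, at -5.04 to -3.29. Of these, Scd1, Atp6v1c2 and Chil1 averaged under 10 CPM over the 4 classes other than AT2-like and so passed the filter only through AT2-like cells. Sftpb was at 104 ± 13.6 CPM in immune cells, and how much RNA from other cells is in the AT1-like values was not tested.

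Of the 33 genes listed as type 1 genes outside the rule, 30 passed the filter, 29 were higher in AT1-like cells and none was lower, with a median log2 difference of 2.51 against 0.09 over all genes tested; the median-of-ratios and edgeR counts were the same. Of the 30, 12 passed the filter only through AT1-like cells; of the other 18, 17 were higher, with a median of 2.41. Pxdc1 was the 1 gene that passed no threshold (0.14). Of the 27 surfactant and lamellar body genes 26 passed the filter, 23 were lower and 2 higher, with a median of -1.98, against a background of 12.1% lower and 28.9% higher. The exceptions were Pgc, the protease precursor pepsinogen C, at 90.9 ± 6.62 against 13.2 ± 2.15 CPM (2.12, and 1 of the genes that passed the filter only through AT1-like cells), and Muc1, a membrane mucin, whose small increase (0.26 ± 0.10) was lost with median-of-ratios scaling. Scd1, on this list, passed the filter only through AT2-like cells, and the counts were not repeated without such genes.

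**Figure D3:**
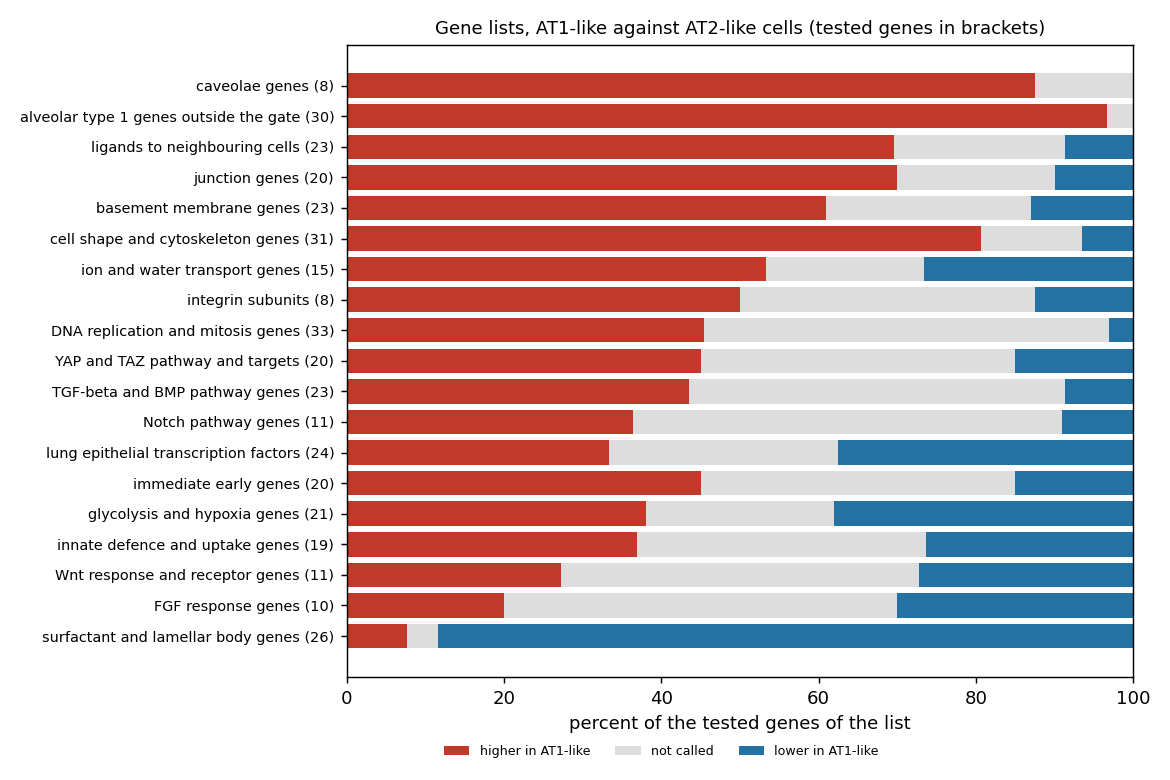
Bars give the percent of the tested genes of each list that were higher (red), not called (grey) or lower (blue) in AT1-like than in AT2-like cells by limma, with the number tested in brackets and lists ordered by median log2 difference. The caveolae and type 1 lists are at the top with no lower gene, and the surfactant list is at the bottom with 23 of 26 lower.

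To find genes that lead in AT1-like cells, these cells were also compared with endothelial, mesenchymal and immune cells of the same lungs. By limma 22.8% of the genes were higher and 45.1% lower than in endothelial cells, 25.1 and 37.5% than in mesenchymal cells and 43.0 and 30.7% than in immune cells. In all, 580 genes (7.01% of those tested) were higher in AT1-like cells in all 4 comparisons. Of these, 129 (22.2%) passed the filter only through AT1-like cells and so had to lie above the mean of the other classes. The 15 with the largest smallest difference were Aqp5, Msln, Emp2, Pdpn, Sec14l3, Gprc5a, Ndnf, Ano1, Plb1, Col4a4, Lmo7, Gipc2, Scnn1g, Edn3 and Akr1c14, of which all but Msln, Emp2, Gprc5a, Ndnf and Lmo7 passed only through AT1-like cells. In each of the 15, the lowest AT1-like lung was above every lung of the other 4 classes. The 15 were chosen by their distance from those classes, so this only describes the choice.

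Several of these genes are not in the usual type 1 lists. Msln, mesothelin, a surface protein best known from the mesothelium that covers the lung, was at 439, 441 and 576 CPM in AT1-like cells, 28.6 ± 10.2 CPM in AT2-like and 7.01 ± 2.42 CPM in mesenchymal cells (log2 difference from AT2-like 3.70 ± 0.13, limma adjusted p = 1.1e-16). The 4 mesothelial markers Msln, Upk3b, Wt1 and Lrrn4 together summed to 443, 442 and 599 CPM in AT1-like cells, so nearly all of that sum was Msln. Ano1, a calcium-gated chloride channel, was at 260 ± 24.2 CPM against 27.5 ± 3.60 CPM in AT2-like cells (2.85). Edn3, the peptide endothelin 3, was at 194, 199 and 173 CPM against 24.1, 27.6 and 14.9 CPM (2.65). Ndnf, a secreted neurotrophic factor, was at 164, 303 and 351 CPM, lowest in lung 1, and stayed above AT2-like cells at 26.8 ± 9.08 CPM in each (2.90 ± 0.15, limma adjusted p = 6.4e-14).

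**Figure D4:**
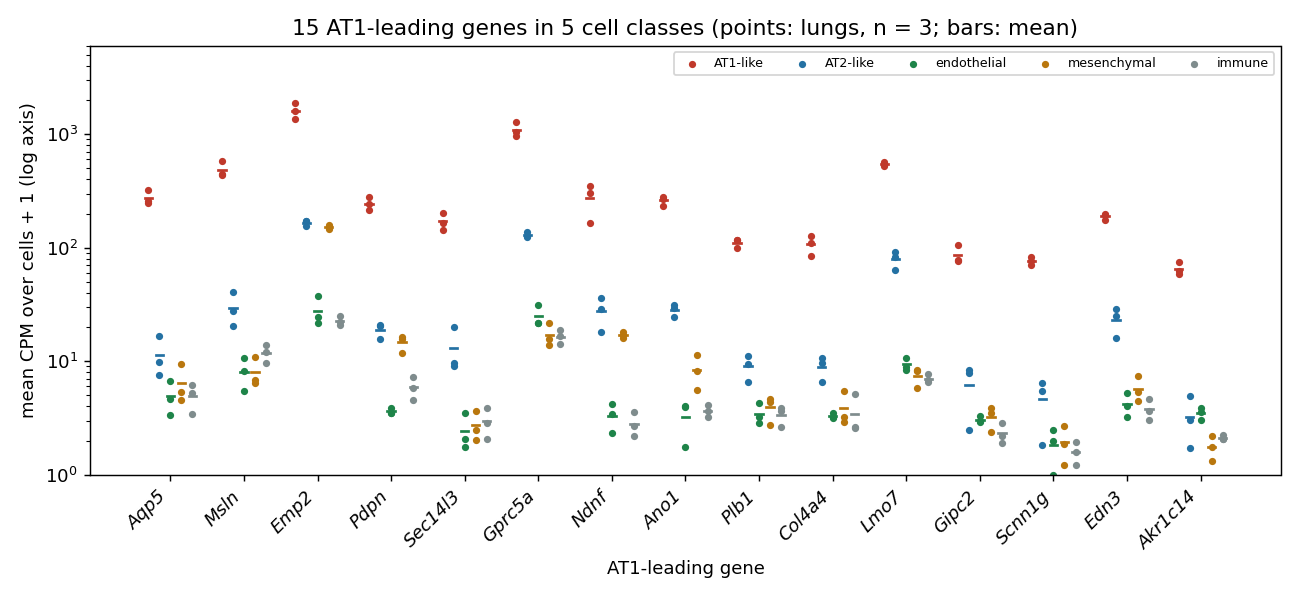
Points give the mean level over cells (CPM plus 1, log axis) of the 15 leading genes in 5 cell classes, 1 point per lung, with bars at the mean of 3 lungs. AT1-like points are the highest for every gene, and AT2-like points are the second highest for most.

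The windows from 250 bases before to 50 after the start of transcription are shown for the leading gene with the largest difference (Aqp5), for Ager, a gene of the rule, and for Plb1, a phospholipase gene and the 1 of the 15 named leading genes whose window held a TEAD motif, since TEAD factors are the DNA-binding partners of YAP and TAZ. The sequences are from RefSeq on GRCm38.p6, at chr15:99590778-99591077 (plus strand), chr17:34597600-34597899 (plus strand) and chr5:32238834-32239133 (plus strand), and capitals mark GGAATG.
Aqp5: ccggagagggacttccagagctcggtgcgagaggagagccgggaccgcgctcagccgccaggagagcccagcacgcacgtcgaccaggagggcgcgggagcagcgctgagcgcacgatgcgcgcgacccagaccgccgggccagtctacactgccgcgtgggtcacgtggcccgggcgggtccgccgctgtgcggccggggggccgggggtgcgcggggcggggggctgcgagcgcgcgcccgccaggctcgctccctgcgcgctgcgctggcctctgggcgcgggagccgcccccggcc
Ager: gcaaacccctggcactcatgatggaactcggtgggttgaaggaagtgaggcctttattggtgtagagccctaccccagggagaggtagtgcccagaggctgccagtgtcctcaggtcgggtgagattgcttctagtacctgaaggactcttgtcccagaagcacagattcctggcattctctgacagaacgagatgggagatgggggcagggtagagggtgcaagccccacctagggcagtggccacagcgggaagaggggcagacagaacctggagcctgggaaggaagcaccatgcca
Plb1: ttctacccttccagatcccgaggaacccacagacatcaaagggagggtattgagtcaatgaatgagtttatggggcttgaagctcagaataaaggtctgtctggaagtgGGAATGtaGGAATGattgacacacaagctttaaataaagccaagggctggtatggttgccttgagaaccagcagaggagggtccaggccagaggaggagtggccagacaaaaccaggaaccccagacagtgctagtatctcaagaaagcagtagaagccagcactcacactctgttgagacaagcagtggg
The Aqp5 window held 46 CpG dinucleotides and 79.7% G and C, against medians of 22 and 61.7% over 6350 tested genes with a window, and the Ager window held 4 and 58.3%. GGAATG was looked for on both strands. It was found in 61 of the 416 leading genes with a window (14.7%), in 11.8% of the tested genes and in 14.7% of all 32851 windows. The AP-1 motif TGANTCA was in 6.01% of leading and 4.43% of tested genes, and TATAAA in 7.45 and 6.99%. CACTTG, bound by NKX2 factors and also a form of E-box, was in 11.5 and 10.3%. Of the 15 genes named above, 11 had a window; Plb1 held 2 GGAATG and 1 AP-1 match, and Scnn1g and Edn3 held CACTTG. These matches describe letters in the window and not occupied sites.

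Genes for water and ion handling moved in both directions. Of 15 tested, 8 were higher and 4 lower, with a median of 0.50, against a background of 28.9% higher and 12.1% lower. With edgeR 8 and 5 were called, with a median of 0.31, where edgeR called 1190 and 1265 of all 8269 genes. Without the members high in airway genes limma called 8 and 3, with a median of 1.27. Of the 15, 5 passed the filter only through AT1-like cells; of the other 10, 4 were higher and 3 lower, with a median of 0.02. The sodium channel subunit Scnn1g was at 69.3, 74.7 and 82.5 CPM against 0.828, 5.49 and 4.51 CPM in AT2-like cells (2.66). Scnn1a, the alpha subunit, was at 98.6 ± 7.34 against 16.51 ± 2.53 CPM (2.04), and Scnn1b, under the filter and so not tested, was at 34.0 ± 4.15 against 3.70 ± 2.10 CPM. All 3 of these subunits of the epithelial sodium channel had the higher mean in AT1-like cells, and none of them has a test that the filter left untouched. The water channel Aqp1 was at 387 ± 65.3 CPM, above AT2-like cells (2.67 ± 0.12, limma adjusted p = 4.8e-15) and close to endothelial cells at 309 ± 34.2 CPM. The sodium pump subunit Atp1b1 was lower (-0.42), as were Slc12a2, Kcnk1 and Kcnj15.

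Caveolae are small pits of the plasma membrane that are abundant in flat type 1 and endothelial cells. Of 8 tested genes 7 were higher in AT1-like than in AT2-like cells and none lower, with a median of 2.55, against a background of 28.9% higher; none of the 8 owed the filter to AT1-like cells alone. Cav1, the main coat protein, was at 459, 432 and 586 CPM against 70.2, 84.6 and 62.3 CPM (2.60 ± 0.10, limma adjusted p = 1.9e-16). Cav2 was at 276 ± 39.3 against 33.9 ± 6.76 CPM, and the coat-associated Sdpr at 320 ± 87.7 against 14.5 ± 0.244 CPM. Pacsin2 was the 1 leading gene of this list. Cav1 was at 1808 ± 4.66 CPM in endothelial cells (log2 difference -1.87). Endothelial marker genes (Pecam1, Cdh5, Kdr, Emcn, Cldn5 and Egfl7) summed to 84.4, 152 and 87.8 CPM in AT1-like cells, 84.1, 145 and 90.6 CPM in AT2-like cells and 6008 to 6383 CPM in endothelial cells. The levels of the 2 alveolar classes lay close together in each lung, although the rule itself set Pecam1 to 0 in both.

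Basement membrane genes were higher for 14 of 23 tested genes and lower for 3, with a median of 0.76, and 12 were leading, against 28.9, 12.1 and 7.01% of all genes tested. Without the 5 genes that passed the filter only through AT1-like cells, 9 of 18 were higher and 3 lower, with a median of 0.45, and 7 were leading. Col4a3 and Col4a4, the collagen IV chains of specialised basement membranes, were at 72.6 ± 23.3 against 4.04 ± 1.74 CPM (2.53) and at 106 ± 21.4 against 7.95 ± 2.14 CPM (2.69); both are among those 5. Col4a1, the widespread chain, did not pass the test against AT2-like cells (0.16 ± 0.07) and was higher in endothelial cells at 888 ± 25.5 CPM than in AT1-like cells at 166 ± 20.8 CPM. Lamb2, a laminin chain, was at 69.0 ± 14.1 against 18.8 ± 0.731 CPM (1.44). Agrn, the proteoglycan agrin, and Fras1 differed by 1.82 and 1.74. Lamb1, Col18a1 and Egfl6 were the lower ones (-0.88, -1.28 and -1.35).

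Of 23 tested genes for signals to neighbouring cells 16 were higher and 2 lower, with a median of 0.96, and 11 were leading, against a background of 28.9, 12.1 and 7.01%. Without the 5 that passed the filter only through AT1-like cells, 11 of 18 were higher and 2 lower, with a median of 0.71, and 6 were leading. Vegfa, the growth factor for the endothelium, was at 149, 113 and 188 CPM against 30.3, 25.1 and 32.1 CPM (2.01 ± 0.12, limma adjusted p = 2.6e-12). Tgfb2 was at 313, 308 and 330 CPM against 40.1, 38.9 and 29.3 CPM (2.83 ± 0.10, limma adjusted p = 7.3e-17). The lungs of the 2 classes did not overlap for either, but both were named for being among the 4 largest differences of a list. Sema3a and Sema3e, guidance proteins for vessels and nerves, differed by 2.73 and 2.14 and are among those 5. Pdgfa, which acts on the mesenchyme, was at 255 ± 8.84 against 84.3 ± 0.978 CPM (1.49 ± 0.10, limma adjusted p = 9.8e-12) and Shh at 122.7 ± 13.5 against 58.3 ± 8.21 CPM (0.96 ± 0.11, limma adjusted p = 1.5e-07). Wnt3a, under the filter and so not tested, was at 22.6 ± 5.03 CPM in AT1-like cells and from 0.181 to 0.254 CPM in the other 4 classes. Il33, an alarmin, and Areg, an EGF receptor ligand, were the lower ones (-2.31 and -0.95). Il33 passed the filter only through AT2-like cells.

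Of 31 cytoskeleton genes tested 25 were higher and 2 lower, with a median of 0.57, against 28.9 and 12.1% of all genes tested. Krt19 was at 1216 ± 47.8 against 216 ± 10.1 CPM (2.44 ± 0.10, limma adjusted p = 7.2e-16), and the calcium-binding S100a6 at 1260 ± 161 against 94.9 ± 15.2 CPM (3.60 ± 0.09, limma adjusted p = 5.3e-19), which was under its level in immune cells of 1925 ± 206 CPM. Immune marker genes had a median sum of 135 to 168 CPM in AT1-like cells and 140 to 170 CPM in AT2-like cells, with Ptprc at 0 in both by the rule. Tpm1 and Cdc42ep3 were the lower ones. Of 20 junction genes 14 were higher and 2 lower, or 10 and 2 of the 15 that did not owe the filter to AT1-like cells; Cldn4 was higher by 1.97 ± 0.13, and Cldn10 and Pard3 were lower. Of 8 integrin subunits 4 were higher and 1 lower, or 2 and 1 of 6 without those that passed only through AT1-like cells, among them Itgb6, the epithelial beta 6 subunit, at 44.4 ± 5.18 against 5.73 ± 1.56 CPM (1.79).

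In the YAP and TAZ pathway, which senses stretch and cell shape, 9 of 20 tested genes were higher and 3 lower, with a median of 0.25, against a background of 28.9 and 12.1%; without Ctgf and Lats1, which passed the filter only through AT1-like cells, 8 of 18 were higher. Wwtr1, which encodes TAZ, was at 119, 121 and 140 CPM against 40.2, 38.6 and 36.0 CPM (1.5 ± 0.09, limma adjusted p = 1.0e-12). Yap1 was at 22.4 ± 4.18 against 29.8 ± 5.79 CPM, a small fall (-0.30 ± 0.10, limma adjusted p = 0.019). The partner Tead1 was higher (1.47 ± 0.11, limma adjusted p = 1.1e-10), as were the target genes Cyr61 (2.03) and Ajuba (2.02). Cyr61 was at 936 ± 53.5 CPM in AT1-like cells and at 1128 ± 121 CPM in mesenchymal cells.

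Of 24 transcription factors tested, 8 were higher and 9 lower, with a median of 0.08, against 28.9 and 12.1% of all genes tested. Nkx2-1, the factor shared by all lung epithelium, was at 673 ± 19.7 against 578 ± 61.3 CPM (0.22, not called). Foxp2, Klf5 and Gata6 were higher by 1.14, 1.17 and 0.72 and were leading. The progenitor and type 2 factors Sox9 (-1.41), Id2 (-1.31), Etv5 (-1.62) and Cebpa were lower. Id3 was higher by 1.53, opposite to Id2.

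The limma counts of the lists that follow are likewise to be read against 28.9% higher and 12.1% lower. Counts with median-of-ratios scaling are to be read against 19.2 and 17.7%, and those by edgeR against 1190 and 1265 of 8269 genes. Of 10 FGF response genes 2 were higher and 3 lower: Fgfr2, the receptor of the distal epithelium, was at 78.8, 100 and 83.6 CPM against 224, 279 and 256 CPM (-1.43 ± 0.10, limma adjusted p = 2.5e-11), whereas Fgfr3 (0.88) and the phosphatase Dusp6 (0.81) were higher. Of 11 Notch genes 4 were higher and 1 lower, or 2 and 1 by edgeR; Hes1, a Notch target, was higher by 0.90 and Dlk1 was the lower one. Of 11 Wnt genes 3 were higher and 3 lower, or 1 and 3 by edgeR, with the target Sp5 at -1.61. Sp5 passed the filter only through AT2-like cells. Of 23 TGF-beta and BMP genes 10 were higher and 2 lower, or 8 and 5 with median-of-ratios scaling, and 8 and 2 of the 21 that did not owe the filter to AT1-like cells; Tgfb2, Ltbp4 (1.77) and Id3 were among the higher ones. Of 21 glycolysis and hypoxia genes 8 were higher and 8 lower, or 6 and 8 both with median-of-ratios scaling and by edgeR; Eno1 was higher by 1.40 and Egln3 lower by 1.29 on the log2 scale. Among 19 innate defence genes 7 were higher and 5 lower, or 6 and 8 with median-of-ratios scaling; Cd9 (1.51) and Icam1 (1.37) were higher and Cd36 (-3.69) and Lcn2 (-2.58) lower. Of 20 immediate early genes, which respond to handling, 9 were higher and 3 lower; Fos, at 0.07, was not called.

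By limma 15 of 33 DNA replication and mitosis genes were higher in AT1-like cells and 1 lower, with a median of 0.30 and a background of 28.9 and 12.1%, but 10 were higher with median-of-ratios scaling and 5 with edgeR, which called none lower and gave a median of 0.15. Over all genes tested 19.2% were higher with median-of-ratios scaling, and edgeR called 1190 of 8269 higher. Cenpf (1.00), Rrm1 (0.78), Rrm2 (0.70) and Cdc20 (0.69) had the largest differences among the calls by limma, of which Cenpf and Cdc20 lost the call with edgeR (0.66, adjusted p = 0.13, and 0.37, adjusted p = 0.15), while Mki67 was at 20.0 CPM against 17.8 CPM and was not called. For a share of cycling cells the 35 listed genes were taken without the cell cycle inhibitors Cdkn1a and Cdkn1c, whether or not they passed the filter. After thinning to 2000 UMIs, 27.6, 29.0 and 25.6% of AT1-like cells held at least 2 of these genes, against 19.9, 20.8 and 16.7% of AT2-like cells. The AT1-like share was the higher in each lung (27.4 ± 1.71 against 19.1 ± 2.19%, two-sided exact permutation p = 0.1, the smallest that 3 against 3 can give). Both classes came from the same lungs, and with swaps within lungs the exact permutation p was 0.25, again the smallest possible, so neither form could pass 0.05. Without thinning the order was the opposite, 72.5 to 81.5% against 78.0 to 87.5%, and the AT2-like cells were the deeper ones. Thinned shares in endothelial cells were 57.4 to 62.6% and in mesenchymal cells 31.0 to 33.0%.

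Members differed among themselves along the type 1 sum. Since the sum chose the cells, bands of it are a description with no test, and their limits were set after the sums had been seen, because the bands first planned (300 to 600, 600 to 1200 and 1200 CPM or more) left only 7 to 19 cells a lung in each of the lower ones. Leaving out the 34 cells with airway genes, bands of 300 to 3000, 3000 to 6000 and 6000 CPM or more held 72, 89 and 122 cells in lung 1, 75, 68 and 91 in lung 2 and 64, 73 and 170 in lung 3. Depth moved with the bands: the median was 8773 to 11748 UMIs in the lowest band and 7358 to 7749 UMIs in the highest. Its part in the values below was not tested.

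Aqp5 was concentrated at the upper end. It was at 45.6, 21.4 and 16.2 CPM in the lowest band of lungs 1, 2 and 3, at 98.9, 72.4 and 52.0 CPM in the middle band and at 513, 594 and 570 CPM in the highest. Most of the difference lay between the middle and the highest band in each lung. Scnn1g was also higher in each band, with 17.3 ± 4.56, 36.9 ± 3.21 and 134 ± 13.1 CPM, as was Vegfa with 47.4 ± 7.70, 91.1 ± 17.4 and 248 ± 37.9 CPM. Emp2 (498 ± 79.3, 1050 ± 124 and 2692 ± 117 CPM) and Cav1 (144 ± 8.05, 296 ± 31.6 and 843 ± 49.3 CPM) were ordered alike, and so was Pdpn (136 ± 25.2, 176 ± 24.4 and 367 ± 5.55 CPM).

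**Figure D5:**
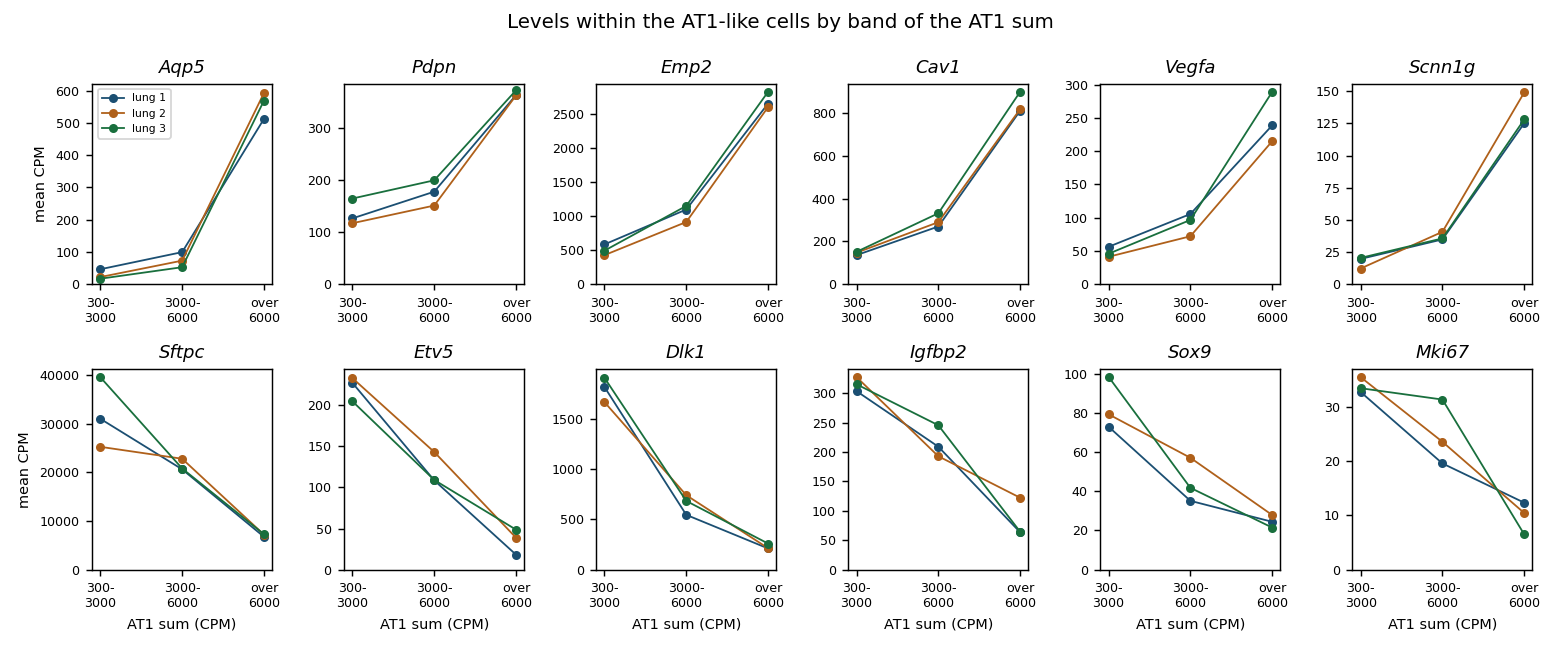
Lines give the mean level (CPM) of 12 genes in 3 bands of the type 1 sum within AT1-like cells, 1 line per lung, without cells high in airway genes. The upper 6 genes are ordered upwards and the lower 6 downwards in all 3 lungs.

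Genes of the distal tip and of type 2 cells ran the other way. Sftpc was at 31064, 25288 and 39622 CPM in the lowest band, at 20649, 22826 and 20820 CPM in the middle and at 6752, 7185 and 7280 CPM in the highest, where it still exceeded the 1812 ± 315 CPM of immune cells. Etv5 was at 222 ± 14.9, 120 ± 19.8 and 35.2 ± 15.6 CPM, Sox9 at 83.8 ± 13.3, 44.7 ± 11.3 and 24.6 ± 3.22 CPM and Dlk1 at 1796 ± 122, 655 ± 100 and 227 ± 27.4 CPM. Each of these was ordered downwards in every lung. Mki67, a proliferation marker, was at 33.9 ± 1.42, 24.8 ± 6.00 and 9.75 ± 2.99 CPM.

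Counted over lists, 24 of the 30 tested type 1 genes outside the rule were ordered upwards over the bands in all 3 lungs, as were 6 of 8 caveolae genes and 7 of 15 water and ion genes, against 5.25% of all genes tested. Of the 30 type 1 genes 12, and of the 15 water and ion genes 5, passed the filter only through AT1-like cells. None of the 8 caveolae genes did. The band counts were not repeated without such genes. Ordered downwards in all 3 lungs were 11 of 33 replication and mitosis genes, with none upwards, 5 of 10 FGF response genes (Fgfr2, Etv5, Spry2, Spred2 and Dusp6) and 7 of 24 transcription factors, against 5.71% of all genes tested. Dusp6 was thus higher in AT1-like than in AT2-like cells yet lowest in the highest band (184 ± 58.7, 100 ± 11 and 66.1 ± 21.8 CPM). Igfbp2, a binding protein for insulin-like growth factors, was the 1 type 1 gene ordered downwards: it was higher in AT1-like than in AT2-like cells (174 ± 23.1 against 50.0 ± 5.33 CPM, log2 difference 1.62 ± 0.16, limma adjusted p = 9.0e-09), yet lay at 316 ± 12, 216 ± 27.0 and 83.4 ± 33.7 CPM over the bands.

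Cells with both programmes were placed between the 2 alveolar classes by the rule itself, and their levels are given as a description. Of the 290 genes at least 2-fold higher in AT1-like than in AT2-like cells, 271 had a mean in these cells between those of the 2 classes, 6 above both and 13 below both; of the 190 lower genes 182 lay between. Sftpc was at 68378 ± 8340 CPM. Pdpn was at 71.9 ± 12.9 CPM, between 243 ± 33.0 CPM in AT1-like and 18 ± 2.84 CPM in AT2-like cells, and Clic5 at 38.9 ± 8.64 CPM, between 251 ± 26.4 and 11.7 ± 3.85 CPM. Igfbp2 was at 185 ± 31.9 CPM in these cells, above its mean in both classes. Etv5 was at 330 ± 9.01 CPM, near the 341 ± 30.8 CPM of AT2-like cells.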

How the data were processed

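Single-cell RNA levels of 3 E17.5 lungs and 1 E16.5 sort were deposited as signal values, genes by cells, on a linear scale in which the authors scaled every cell of a file to the same total. The submitters' processing notes name the tools Cell Ranger 1.3.1 and Seurat 3.0.0 with no role for either. No genome build is given in the sources used here. The labels' protocol speaks of lysis plates, while the barcodes are of the droplet kind. Divided by the smallest value of its cell, every deposited value came out whole (100%, tolerance 0.01), so UMI counts were recovered from them. Each value was also divided by its cell's total to give CPM. Level comparisons between genes are not made, since 3′ UMIs carry no length scale.

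Cells were put in classes by detected genes. AT1-like and AT2-like cells are defined in the text; endothelial, mesenchymal and immune cells needed 3 or more of 6 markers, and 894 cells stayed unassigned. CPM was averaged over the cells of a class in a lung, and log2(CPM + 10) was fitted with limma 3.58.1 (R 4.3.3, trend, empirical Bayes) with lung as a block. All 5 classes were in 1 fit, so a gene had the same SE in all 4 comparisons. Classes of 1 lung share an animal, and their deviations correlated (0.150, 0.111 and 0.225). The 31 genes of the class rules were not tested, nor were genes averaging under 10 CPM. A gene was called at p under 0.05 after Benjamini-Hochberg adjustment. On simulated data for AT1-like against AT2-like cells (8215 genes) limma found 90 of 100 genes changed 2-fold and 96 of 100 changed 4-fold, but 31 of its 217 calls (14.3%) were false, against 9 of 193 (4.66%) for edgeR 4.0.16. Counts by edgeR are therefore given beside those by limma for the totals and some lists. For the others edgeR called, higher and lower, surfactant 1 and 24, caveolae 7 and 0, basement membrane 14 and 3. Signals had 14 and 3, cytoskeleton 22 and 2, junctions 13 and 2, integrins 3 and 1, YAP and TAZ 9 and 2. Transcription factors had 7 and 9, FGF 2 and 4, TGF-beta and BMP 7 and 5, innate defence 5 and 7. Immediate early genes had 8 and 3, and 478 genes were leading. Over all 8269 genes edgeR called 1190 higher and 1265 lower.

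Doublets were scored against simulated sums (score over 0.9) with scikit-learn 1.9.0. Intervals and SDs are over 3 lungs. Named genes are the genes of the rule, the 12 largest called differences in each direction with 1 sign in 3 lungs, the 15 leading genes, and the 4 largest of each list; others were picked after their values were seen. List counts without genes that averaged under 10 CPM over the 4 classes other than AT1-like, and swaps within lungs for the cycling share, were added after seeing the data. The members and gene lists were chosen with earlier results of these data known. Python 3.11.15, numpy 2.4.6, pandas 2.3.3 and scipy 1.17.1 were used.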

Additional observations from a re-analysis of the deposited data

Results flagged for a closer look

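The rule for AT1-like cells was also applied to the E16.5 sort, which no comparison used, and 12 of its 3085 cells passed although the sort was for mesenchymal reporters. Their median depth was 17772.5 UMIs. Ager averaged 653 CPM in them and was detected in 11 of the 12, Pdpn averaged 184 CPM, Emp2 270 CPM and Sftpc 7594 CPM. Aqp5 was at 1.24 CPM, with a UMI in 1 cell. Scgb3a2, an airway secretory gene, had a UMI in 3 of these cells, and Acta2, the gene behind the sorted reporter, averaged 156 CPM with a UMI in 11 of them. With 1 sample there is no replicate and no test, and the stage and the sort cannot be told apart.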

How the results depend on the processing

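The count of genes higher in AT1-like than in AT2-like cells (2393) moved to 1190 with edgeR on recovered UMI sums and 1590 with median-of-ratios scaling, and the count of leading genes (580) to 954 with no filter on low levels; the filter changes how many genes are tested, and the cause of the other moves was not tested. Leaving out 1 lung at a time gave 1903 to 1976 higher genes, 797 to 943 lower genes, 472 to 541 leading genes and a share of AT1-like cells of 11.2 to 11.8%. Without the replicate block the counts were 2228, 936 and 550. The share of 11.5% became 10.6% when the type 1 sum had to exceed 4 times the type 2 sum, 12.1% when 2 or more of 5 epithelial genes sufficed and 10.6% when 4 or more were needed. Without cells high in airway genes, an alternative chosen after seeing the data, the counts were 2395, 1039 and 590 and the share 11.1%. Over 96 named genes, 1234 of 1245 values kept direction and call, 11 lost the call (Itgb5, Notch1, Fzd2, Nkd1, Tcf7l2, Cenpf and Cdc20) and none reversed. Thinning to 3000 UMIs lowered the counts to 1709, 737 and 402.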

Other observations

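Lung 3 stood apart for a few genes, in AT1-like cells and in the other classes alike. Pgk1, a glycolytic enzyme, was at 106, 114 and 16.9 CPM in lungs 1, 2 and 3, and Gstp1, a glutathione transferase, at 70.7, 97.2 and 22.5 CPM. AT2-like cells showed the same order, with Pgk1 at 66.6, 96.2 and 22.0 CPM and Gstp1 at 83.1, 110 and 25 CPM. Pgk1 was at 95.8, 111 and 19.3 CPM in endothelial and at 110, 160 and 29.9 CPM in immune cells. The others that were lower in lung 3 were 5 predicted genes (Gm8186, Gm10020, Gm10073, Gm10076 and Gm10116) and the histone gene Hist1h2ap, while Gm26917 and AY036118 were higher. For all of these lung 3 stood apart in the same direction in every class, so the shift is not particular to AT1-like cells. Pgk1 and Gstp1 have near-identical copies in the genome, among which the authors' counting could split reads. Whether this bears on the difference of lung 3 was not tested. In lung 1 Scgb1a1 and Hopx were lower than in both other lungs, and lung 1 was the lowest for both in every class. In lung 2 Vps8 was lower, at 179, 64.9 and 149 CPM, but in AT2-like cells it was at 175, 195 and 248 CPM.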
